A study of Mus musculus with 9 samples.

Results

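The forkhead transcription factor genes were taken as the protein-coding genes of the GENCODE M21 annotation of mouse genome GRCm38 whose symbols run from *Foxa* to *Foxs* followed by a digit. There were 44 of them among 21951 protein-coding genes. By the tissues in which they are known to act, 8 were grouped as mesenchymal, 10 as epithelial or endodermal, 12 as broadly expressed and 14 as other (neural, lens, gonad, immune, germ line or early embryo). Their chromatin was profiled in primary smooth muscle cells of the oviduct from WT mice aged 8 to 12 weeks on D2 of pregnancy, with no allele altered and no treatment given in any group. The assay was ChIC-seq, in which an antibody guides a nuclease fused to protein A to its target in fixed cells so that the DNA cut free can be sequenced, with 50000 cells per library. There were 3 libraries for PBRM1, 3 for BRG1 and 3 for nonspecific IgG, and the IgG libraries were not analysed here. What follows rests on a peak list for each of the 6 PBRM1 and BRG1 libraries and on a pooled list for each antibody. The labels do not say whether the 3 libraries of an antibody came from separate cultures or animals, so any spread between them may be technical.

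Forkhead proteins share a winged-helix DNA-binding domain, and some of them open compacted chromatin. In mesenchyme, *Foxf1*, *Foxf2* and *Foxl1* are known targets of Hedgehog ligands released by the overlying epithelium, and *Foxc1* and *Foxc2* act in vascular and skeletal mesenchyme. In the oviduct and uterus, *Foxj1* drives formation of motile cilia and *Foxa2* marks glands, both in epithelium. PBRM1, also named BAF180, belongs to the PBAF complex and not to the related BAF complex of SWI/SNF remodellers, whereas BRG1 (*Smarca4*) is an ATPase that both complexes use.

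A promoter peak was counted for a gene when the summit of a peak lay within 2 kb of any annotated start of the gene. By this count, 13 of the 44 forkhead genes had a promoter peak in all 6 replicate lists, against 41.5% of all protein-coding genes, and 14 had none in any list, against 34.9% of all genes. Among mesenchymal genes 2 of 8 had a peak in all 6 lists and 1 had none, among epithelial or endodermal genes 1 of 10 had a peak in all 6 lists and 8 had none, and among broadly expressed genes 8 of 12 had a peak in all 6 lists and none lacked one entirely. Of the other genes, 2 of 14 were in all 6 lists and 5 in none. The median number of lists was 1.5 for mesenchymal, 0 for epithelial or endodermal, 6 for broadly expressed and 2 for the other genes, and 4 over all protein-coding genes. A gene with more annotated starts had more places for a peak to count. The median number of starts was 1 for mesenchymal, 1 for epithelial or endodermal, 4.5 for broadly expressed and 1.5 for other genes. It was 3 over all protein-coding genes. With only the outermost 5′ end counted, 6 of 12 broadly expressed genes were in all 6 lists, against 37.5% of all genes. Genes are not replicates of a class, so these counts are given without a test. In the pooled lists, 29 forkhead genes had a PBRM1 promoter peak, against 65.4% of all genes, and 35 had a BRG1 promoter peak, against 67.3%. For PBRM1 and BRG1 these were 6 and 7 of 8 mesenchymal and 4 and 5 of 10 epithelial or endodermal genes. They were 12 and 12 of 12 broadly expressed and 7 and 11 of 14 other genes.

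**Figure D1:**
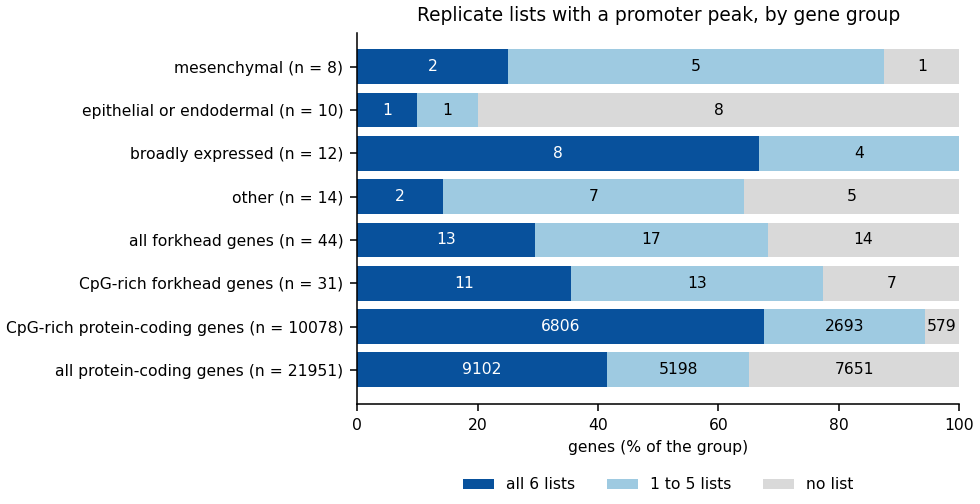
Share of genes (x axis, % of the group) with a promoter peak in all 6, in 1 to 5 or in none of the replicate lists, for each forkhead class, all forkhead genes, CpG-rich forkhead genes and all protein-coding genes. Numbers in the bars are genes. The broadly expressed class has 8 of 12 genes in all 6 lists, and the epithelial or endodermal class has 8 of 10 in none.

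The sequences below come from genes of the contrasted classes and from the strongest sites of the family. They are given 5′ to 3′ on the strand named, in GRCm38 coordinates, and capitals mark every match, on either strand, to a GC box (GGGCGG), an NFY box (CCAAT), a forkhead motif (TGTTTAC), an AP-1 motif (TGANTCA), a TEAD motif (ACATTCC) or an SRF CArG box. Neighbouring matches can overlap, so a longer run of capitals may hold more than 1. *Foxc1* is the mesenchymal gene with the strongest promoter peak in all 6 lists, and *Foxf2*, its neighbour on chromosome 13, had a peak in 1 list only. The *Foxl1* site is the mesenchymal distal site found in all 6 lists, and the *Foxa3* and *Sympk* site is the single epithelial or endodermal promoter site in all 6 lists. *Foxa2* had no peak in any list. The *Foxo3* and *Foxk1* sites are the strongest promoter site and the strongest distal site of the family. The *Foxf2*, *Foxa2*, *Foxo3* and *Foxk1* sequences were chosen after their values were seen. The stretches upstream of *Foxc1*, *Foxf2* and *Foxa2* are the 250 bases before a RefSeq start (*Foxa2* has several, and the most upstream is shown), since the *Foxc1* summit lies in its 5′ UTR, and the others are centred on the highest summit. The last 13 bases shown for *Foxc1* lie within its GENCODE 5′ UTR.
Foxc1 upstream (chr13:31806396-31806645, plus strand): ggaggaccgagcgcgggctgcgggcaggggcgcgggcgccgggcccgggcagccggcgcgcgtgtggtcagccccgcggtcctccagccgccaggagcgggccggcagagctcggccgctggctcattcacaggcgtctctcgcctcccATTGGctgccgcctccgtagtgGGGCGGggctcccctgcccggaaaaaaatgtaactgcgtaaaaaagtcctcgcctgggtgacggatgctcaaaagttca
Foxf2 upstream (chr13:31625566-31625815, plus strand): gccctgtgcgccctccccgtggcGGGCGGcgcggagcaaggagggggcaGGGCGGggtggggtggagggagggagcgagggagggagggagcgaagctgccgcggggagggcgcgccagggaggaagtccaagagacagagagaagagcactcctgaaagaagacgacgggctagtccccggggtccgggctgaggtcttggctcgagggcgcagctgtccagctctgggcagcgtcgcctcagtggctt
Foxl1 distal site (chr8:121125363-121125563, plus strand): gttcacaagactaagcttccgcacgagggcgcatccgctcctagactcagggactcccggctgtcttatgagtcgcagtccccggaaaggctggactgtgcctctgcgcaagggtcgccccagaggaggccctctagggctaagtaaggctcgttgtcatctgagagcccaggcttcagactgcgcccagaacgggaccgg
Foxa3 and Sympk site (chr7:19024201-19024401, plus strand): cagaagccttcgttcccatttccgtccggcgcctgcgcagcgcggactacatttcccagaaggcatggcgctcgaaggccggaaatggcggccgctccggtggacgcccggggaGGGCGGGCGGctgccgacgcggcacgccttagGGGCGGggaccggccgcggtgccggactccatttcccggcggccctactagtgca
Foxa2 upstream (chr2:148046970-148047219, minus strand): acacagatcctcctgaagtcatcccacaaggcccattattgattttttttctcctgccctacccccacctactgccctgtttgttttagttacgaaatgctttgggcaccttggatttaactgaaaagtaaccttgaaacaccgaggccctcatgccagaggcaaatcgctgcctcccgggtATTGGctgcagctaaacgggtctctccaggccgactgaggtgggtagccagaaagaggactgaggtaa
Foxo3 upstream site (chr10:42277705-42277905, plus strand): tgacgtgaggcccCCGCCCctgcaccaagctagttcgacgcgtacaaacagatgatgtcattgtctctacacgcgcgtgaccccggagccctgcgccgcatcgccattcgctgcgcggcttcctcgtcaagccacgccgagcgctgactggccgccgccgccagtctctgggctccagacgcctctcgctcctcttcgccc
Foxk1 intronic site (chr5:142440548-142440748, plus strand): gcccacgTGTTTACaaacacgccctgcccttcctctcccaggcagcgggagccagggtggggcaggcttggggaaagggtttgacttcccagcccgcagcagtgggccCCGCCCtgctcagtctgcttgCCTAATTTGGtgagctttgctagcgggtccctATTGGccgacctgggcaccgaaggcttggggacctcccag

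The upstream stretch of *Foxc1* held 29 CpG dinucleotides with 70.8% G and C, and that of *Foxf2* held 21 with 71.6%, and that of *Foxa2* shown here held 6 with 50.8%. The stretches before the other RefSeq starts of *Foxa2* held 20 with 67.2% and 13 with 54.4%, so *Foxa2* was not poor in CpG at every start. A GC box occurred in 32.9% and an NFY box in 34.5% of 27025 RefSeq promoters of the same 250 bases, and in 20 and 13 of the 28 forkhead genes that the RefSeq table held, with the first-listed start taken for each gene. Around summits found in all 6 lists, 55.1% of promoter windows and 10.5% of distal windows of one length held a GC box. The *Foxk1* window held a forkhead motif, an SRF CArG box, an NFY box and a GC box, in a setting where 2.77% of distal windows held the forkhead motif and 1.18% the CArG box. The *Foxl1* window held none of the 6 motifs. There were 30 windows in forkhead gene bodies and their 20 kb flanks. Some lay at the start of a neighbouring gene and at no forkhead start, such as that of *Med12* near *Foxo4*. Of the 30, 2 held the forkhead motif, against 1.88% of all windows. The AP-1 motif was in 2, against 9.05%, and the TEAD motif in 1, against 2.86%. These matches describe the letters of the windows only.

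*Foxc1* was the mesenchymal gene occupied most evenly. Its promoter peak reached 1.41, 1.49 and 1.42 FPM in PBRM1 replicates 1 to 3 and 1.64, 1.47 and 1.93 in BRG1 replicates 1 to 3, where FPM is the number of fragments at the summit per 1000000 fragments of the library. The 6 heights lay close together, with means of 1.44 ± 0.0426 for PBRM1 and 1.68 ± 0.232 for BRG1 (SD, n = 3 each), and the ranges of the 2 antibodies overlapped. All 6 summits lay 61 to 104 bp downstream of the start, in the 5′ UTR exon, within a region at chr13:31806527-31806836. Among the 9102 protein-coding genes with a promoter peak in all 6 lists, 44.6% had a lower mean height than *Foxc1*.

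*Foxd2*, a mesenchymal factor of the developing kidney, was the other mesenchymal gene found in all 6 lists. Its heights were 0.808, 0.828 and 1.13 FPM for PBRM1 and 1.38, 1.05 and 1.06 for BRG1. They were low, above those of 9.20% of the 9102 genes only, and the summits scattered from 695 bp upstream to 197 bp downstream of the start, so not every list pointed at one site. The noncoding gene *Foxd2os* starts 384 bp away in the opposite direction and had the same 6 lists, and peaks between the 2 starts cannot be assigned to either.

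*Foxf1*, a Hedgehog-responsive factor of visceral mesenchyme and smooth muscle, had promoter peaks in all 3 BRG1 lists and in no PBRM1 list, a pattern shared by 0.747% of protein-coding genes. The BRG1 heights were 1.32, 0.980 and 0.865 FPM, but the summits fell at different sites, 860 and 637 bp upstream of the start in replicates 1 and 3 and 629 bp downstream in replicate 2. The pooled PBRM1 list did hold peaks of 24 and 23 fragments, 637 and 210 bp from the start, and the pooled BRG1 list peaks of 38 and 27 fragments, 864 and 631 bp from the start. The PBRM1 pool was the deeper, with 61910852 against 45216486 fragments. *Fendrr*, a long noncoding RNA gene of mesoderm that starts 1276 bp from *Foxf1* on the opposite strand, had the same 3 BRG1 lists.

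The remaining mesenchymal genes had promoter peaks in few replicate lists. *Foxc2* had a peak in PBRM1 replicate 1 only, at 1.36 FPM and 48 bp from its start. *Foxd1*, a marker of stromal progenitors in the kidney, had 0.505 in PBRM1 replicate 1 and 0.798 in BRG1 replicate 3. *Foxs1*, a gene of pericytes and vascular smooth muscle, had 1.01 and *Foxf2* had 0.755, both in BRG1 replicate 1 only. *Foxl1*, a marker of mesenchymal cells beneath the gut epithelium, had no promoter peak in any list. A site in all 6 lists had summits 2341 to 2477 bp from its start, just beyond the 2 kb limit. In the pooled PBRM1 and BRG1 lists, *Foxc2* had promoter peaks of 49 and 39 fragments, *Foxs1* of 33 and 37 and *Foxd1* of 26 and 22. *Foxf2* had a pooled peak of 30 fragments with BRG1 and none with PBRM1, and *Foxl1* had neither. The lowest height at which any peak was called was 0.333 to 0.420 FPM in the 6 lists, or 6 to 8 fragments. Promoters below these heights went unlisted and promoters above them could go unlisted too, so unlisted promoters are not shown to be empty.

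**Figure D2:**
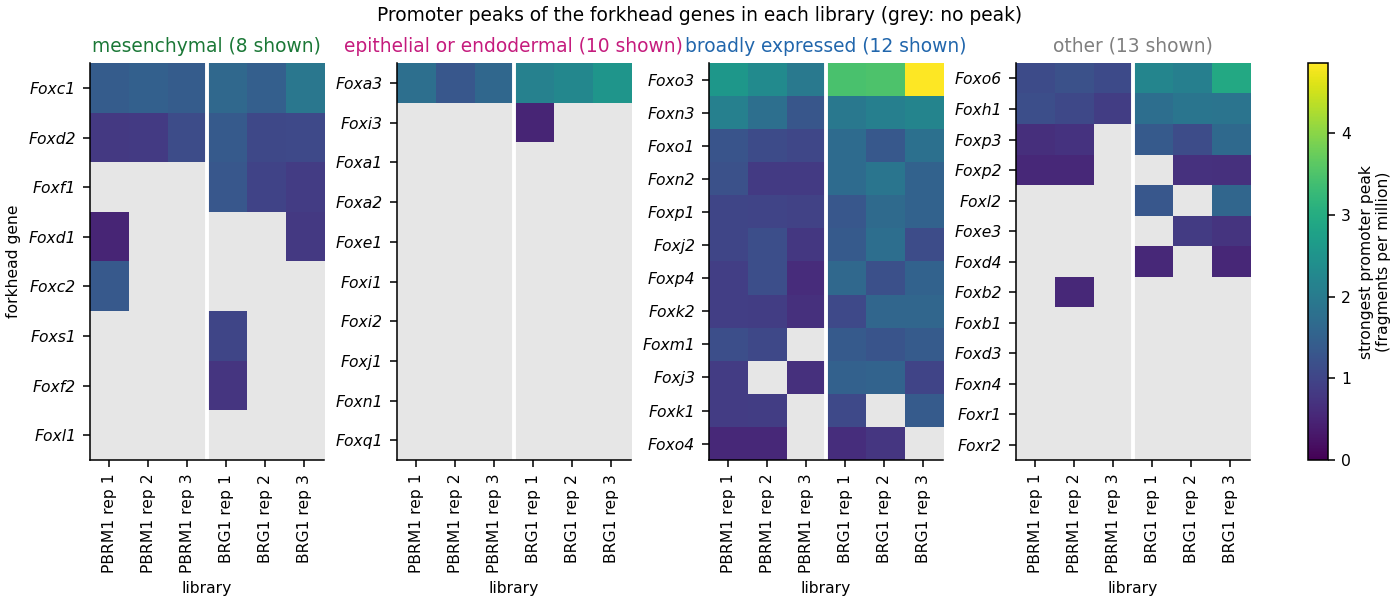
Height of the strongest promoter peak (color, FPM) of 43 forkhead genes in each of the 6 libraries, by class. Grey marks a gene with no promoter peak in that list. *Foxc1* and *Foxd2* are filled across all 6 columns, *Foxf1* in the 3 BRG1 columns, and *Foxa3* is the single epithelial or endodermal row that is filled.

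*Foxf1*, *Foxc2* and *Foxl1* lie in a row on chromosome 8, with 28.027 kb between *Foxf1* and *Foxc2* and 9.045 kb between *Foxc2* and *Foxl1*. The most reproducible signal in this stretch was not at a forkhead start. A site 2477 bp upstream of *Foxl1*, at chr8:121125337-121125910 between *Foxc2* and *Foxl1* and inside an intron of the long annotated gene *Gm20388*, was found in all 6 lists, at 1.57, 1.38 and 1.08 FPM for PBRM1 and 1.82, 1.82 and 1.80 for BRG1. Every BRG1 value was above every PBRM1 value there, and after centring on the median region the difference was -0.02 ± 0.17 on the log2 scale (SE, limma, adjusted p = 0.967). The other site found in all 6 lists around *Foxc2* and *Foxl1*, with a mean of 1.72 FPM, was 19 bp from the start of *Mthfsd*, which lies between *Foxf1* and *Foxc2*. On chromosome 13, *Foxq1*, *Foxf2* and *Foxc1* follow one another, 64.8 kb and 175 kb apart, and only *Foxc1* carried a region found in all 6 lists.

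**Figure D3:**
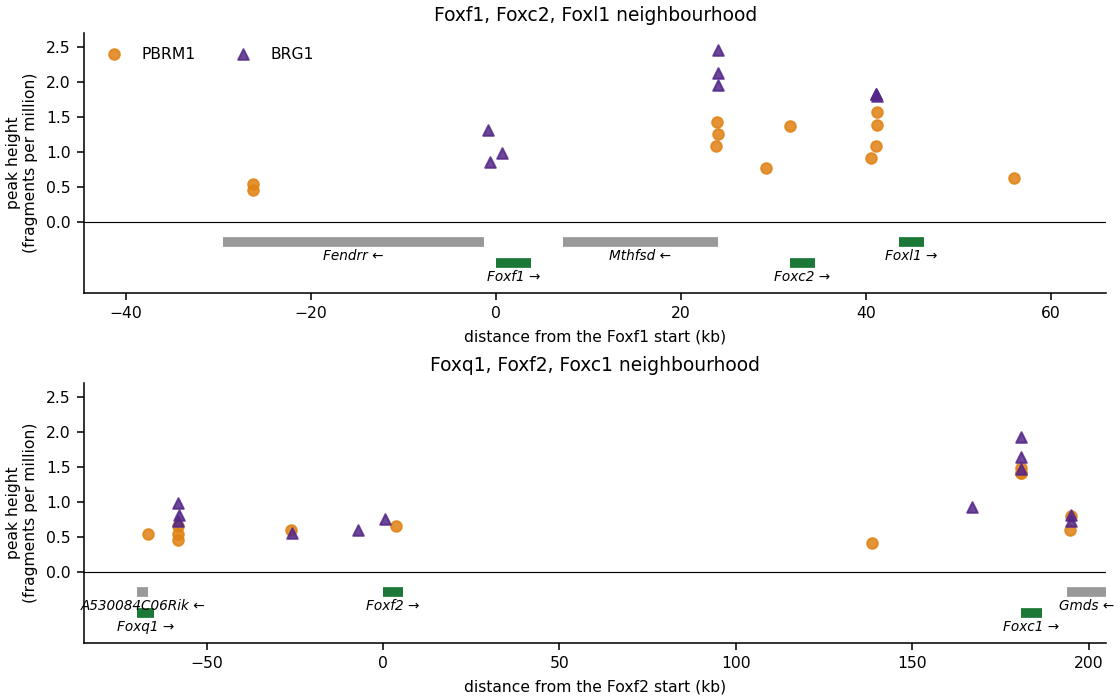
Peaks of the 6 replicate lists (y axis, FPM) along 2 forkhead gene neighbourhoods (x axis, kb from the start of *Foxf1* above and of *Foxf2* below); circles are PBRM1 and triangles BRG1, 1 point per peak, and bars are genes with arrows for their direction. The column of points 2477 bp before *Foxl1* has both antibodies, whereas the points at *Foxf1* are BRG1 only.

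Of the epithelial or endodermal genes, *Foxa1*, *Foxa2*, *Foxe1*, *Foxi1*, *Foxi2*, *Foxj1*, *Foxn1* and *Foxq1* had no promoter peak in any replicate list. *Foxa1*, *Foxa2*, *Foxi1* and *Foxi2* also had no replicate peak anywhere in the gene body and the 20 kb on each side. *Foxi3*, an ectodermal placode gene, had 1 peak of 0.503 FPM in BRG1 replicate 1, near that list's lowest height of 0.377.

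*Foxa3*, a pioneer factor of liver and gut endoderm, was the exception, with 1.77, 1.32 and 1.63 FPM for PBRM1 and 2.14, 2.24 and 2.53 for BRG1. The antibody ranges did not overlap, but BRG1 heights were also higher at the median region, by 0.47 on the log2 scale. After centring on the median region the difference was 0.09 ± 0.18 (SE, limma, adjusted p = 0.811). The share of all regions without overlap was not counted. The *Foxa3* heights were above those of 68.6% of the 9102 genes with a peak in all 6 lists. However, the highest summit lay 763 bp from the *Foxa3* start and 76 bp from the start of *Sympk*, which encodes a scaffold of messenger RNA end processing and runs in the opposite direction. In each of the 6 lists the strongest *Foxa3* summit was closer to *Sympk* than to *Foxa3*, by 55 to 95 bp against 744 to 784 bp. Without this shared site no epithelial or endodermal gene would have had a promoter peak in more than 1 list.

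*Foxj1* went against its replicate lists in the pooled data. Its pooled PBRM1 peak had 61 fragments, a fold enrichment of 5.999 and a −log10 q of 25.8, 35 bp from the start, and its pooled BRG1 peak had 59 fragments, a fold enrichment of 5.91 and a −log10 q of 24.8, 24 bp from the start, although no replicate list held a peak there. Such cases were rare, since 26 of 9863 pooled PBRM1 peaks and 33 of 12163 pooled BRG1 peaks with a −log10 q of at least 20 overlapped no replicate peak (0.264% and 0.271%). The replicate lists alone do not show that the *Foxj1* promoter was free of either protein. The pooled peaks of *Foxa1* had only 25 and 21 fragments and those of *Foxe1* 19 and 16, and *Foxa2*, *Foxi1*, *Foxi2*, *Foxn1* and *Foxq1* had no pooled promoter peak.

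Compared by the height of the peaks that were called, the classes ran the other way. In each library, the median mesenchymal height was at or below the median epithelial or endodermal height, by 0 in BRG1 replicate 1 to -1.56 FPM in BRG1 replicate 3. That comparison set 2 to 5 mesenchymal genes against 1 or 2 epithelial or endodermal genes, in which the *Sympk*-proximal site of *Foxa3* supplied all of the value in 5 libraries. When genes without a peak were entered at the lowest called height of their list, the difference was 0 to 0.503 FPM. It could not fall below 0, because most epithelial or endodermal genes lacked a peak and their median was then the lowest called height.

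The broadly expressed genes made up 8 of the 13 forkhead genes with a promoter peak in all 6 lists, but 2 of 6 when only peaks with a −log10 q of at least 5 were counted. *Foxj2*, *Foxk2*, *Foxn2*, *Foxn3*, *Foxo1*, *Foxo3*, *Foxp1* and *Foxp4* were in all 6 lists, *Foxj3* and *Foxm1* in 2 PBRM1 and 3 BRG1 lists, and *Foxk1* and *Foxo4* in 2 of each. *Foxo3*, an effector that AKT signaling keeps out of the nucleus, was the highest of the family, with 2.58, 2.32 and 1.96 FPM for PBRM1 and 3.46, 3.50 and 4.86 for BRG1. It exceeded 96.1% of the 9102 genes with a peak in all 6 lists. The summits of its strongest peak lay 1233 to 1249 bp upstream of the start with PBRM1 and 1050 to 1112 bp upstream with BRG1. Summit positions of the 2 antibodies did not overlap at 5 of the 30 regions in forkhead gene bodies and flanks, some of them at neighbouring genes. This was close to the 14.0% over all 12830 regions found in all 6 lists.

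*Foxn3*, a transcriptional repressor with 14 annotated starts, was next within the broadly expressed class, with 2.12, 1.77 and 1.29 FPM for PBRM1 and 1.95, 2.10 and 2.19 for BRG1, and its ranges overlapped between antibodies. Its strongest summit lay 910 bp from an alternative start inside the gene, and a weaker region found in all 6 lists lay near the outermost start. *Foxp1* reached all 6 lists only by joining different sites, since 22 annotated starts gave 9 promoter regions and the best of them was in 3 lists. The other 12 forkhead genes in all 6 lists each had at least 1 merged region with a peak from every list, although within the *Foxd2* region the peaks of PBRM1 replicates 1 and 2 did not overlap each other. *Foxm1*, which drives genes of cell division, had a highest summit 108 bp from *Rhno1* and 496 bp from its own start.

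Among the other genes, *Foxo6* and *Foxh1* were in all 6 lists, *Foxp3* in 2 PBRM1 and 3 BRG1 lists, *Foxp2* in 2 of each, *Foxl2*, *Foxe3* and *Foxd4* in 2 BRG1 lists, *Foxb2* in 1 PBRM1 list, and *Foxb1*, *Foxd3*, *Foxn4*, *Foxr1* and *Foxr2* in none. *Foxo6*, a FOXO factor best known from brain, had 1.11, 1.21 and 1.08 FPM for PBRM1 and 2.202, 2.10 and 2.93 for BRG1, with all summits 544 to 567 bp upstream. Every BRG1 value lay above every PBRM1 value, before any allowance for the higher BRG1 level at the median region. After centring on that region the difference was 0.60 ± 0.18 on the log2 scale (SE, limma, adjusted p = 0.0650). *Foxh1*, a SMAD partner in Nodal signaling, owed its place to a summit 7 bp from *Ppp1r16a* and 1660 bp from its own start, and *Foxp3*, the factor of regulatory T cells, had its highest summit 89 bp from *Ppp1r3f* and 728 bp from its own. In all, 7 of the 30 forkhead genes with any promoter peak had their highest summit nearer the start of another gene. The same share over all protein-coding genes was not counted, so 7 is not shown to be unusual. A start of another gene lay within 2 kb for 16 of the 44 forkhead genes.

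More forkhead genes were in more BRG1 than PBRM1 lists than the reverse, 10 against 2, where the same held for 14.6% and 5.44% of protein-coding genes. The number of forkhead genes with a promoter peak was 22, 19 and 14 in PBRM1 replicates 1 to 3 and 24, 21 and 23 in BRG1 replicates 1 to 3. PBRM1 replicate 3 was the lowest although it was the most deeply sequenced library, with 23992352 fragments against 14284532 to 19792451 in the others. Over all protein-coding genes it had a promoter peak at 11369, between the 11774 and 11152 of PBRM1 replicates 1 and 2. Without it, 15 rather than 13 forkhead genes were in every remaining list.

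The classes also differed in CpG content. A promoter was called CpG-rich when the ratio of observed to expected CpG in about 1 kb around the outermost 5′ end of the gene was at least 0.6. The median ratio was 0.821 for mesenchymal, 0.547 for epithelial or endodermal, 0.877 for broadly expressed and 0.658 for other genes, and 0.552 over all protein-coding genes. CpG-rich promoters were found for 7 of 8 mesenchymal, 3 of 10 epithelial or endodermal, 11 of 12 broadly expressed and 10 of 14 other genes. Of the 31 CpG-rich forkhead genes 11 were in all 6 lists, against 67.5% of all 10078 CpG-rich genes, and 7 were in no list, against 5.75%. Within the CpG-rich promoters 2 of 7 mesenchymal, 0 of 3 epithelial or endodermal, 8 of 11 broadly expressed and 1 of 10 other genes were in all 6 lists, and 4 of those 10 other genes were in none. *Foxf2*, *Foxc2* and *Foxl1*, with ratios of 0.854, 0.993 and 0.770, were CpG-rich yet in at most 1 list. The part of base composition in the class contrast was not tested.

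**Figure D4:**
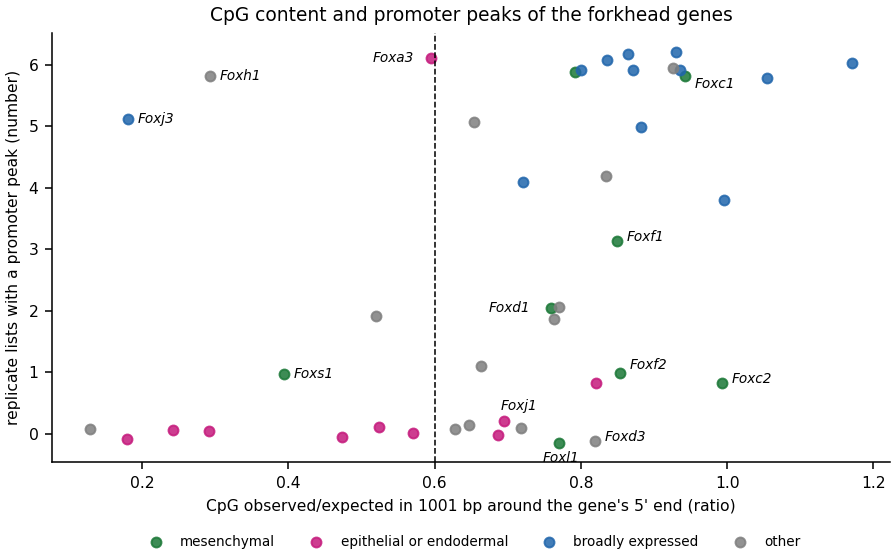
Number of replicate lists with a promoter peak (y axis, points shifted slightly up or down so that they do not overlap) against the CpG observed to expected ratio around the outermost 5′ end (x axis) for 43 forkhead genes, colored by class. The dashed line is the limit of 0.6 for a CpG-rich promoter, and *Foxf2*, *Foxc2* and *Foxl1* lie to its right at 0 or 1 list.

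Away from starts, regions found in all 6 lists and more than 2 kb from any annotated start were sought in each gene body and the 20 kb on each side. At least 1 such region was held by 7 forkhead genes, against 14.0% of all protein-coding genes. Of the 8 distinct regions, 5 belonged to broadly expressed genes, 2 to other genes, 1 to the mesenchymal genes *Foxc2* and *Foxl1* together and 0 to epithelial or endodermal genes. *Foxk1* and *Foxp1* had 2 each, and *Foxn2*, *Foxn4* and *Foxp2* had 1 each. Windows differ in length, and the *Foxp1* and *Foxp2* windows of 637 kb and 581 kb were the longest. The median window was 99.0 kb for broadly expressed, 43.2 kb for mesenchymal, 44.6 kb for epithelial or endodermal and 43.7 kb for other genes. Per Mb of window these regions numbered 2.52, 5.72, 0 and 1.66 in the same order, and 2.02 over all protein-coding genes. The mesenchymal value counts the region shared by *Foxc2* and *Foxl1* once for each gene. Regions found in at least 1 list were also counted per 100 kb, with those at starts of the gene or its neighbours included. Their median number was 6.62 for mesenchymal, 3.36 for epithelial or endodermal, 6.997 for broadly expressed and 4.06 for other genes. It was 4.80 for all protein-coding genes. The *Foxc2* and *Foxl1* windows, at 11.7 and 14.0, overlapped and shared regions.

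The strongest distal site was in an intron of *Foxk1*, a metabolic and autophagy regulator, at chr5:142440283-142441007 and 39151 bp downstream of the outermost start. It had 2.37, 2.54 and 2.17 FPM for PBRM1 and 3.46, 3.57 and 3.19 for BRG1, and its 6 summits lay within 80 bp of each other. Its heights thus exceeded every promoter peak of *Foxk1* itself, which ranged from 0.859 to 1.40 FPM in 4 lists. The other *Foxk1* site, also intronic, had a mean of 1.46 FPM, and the *Foxp1* sites 1.56 and 1.02. *Foxn4*, a gene of retina and spinal cord with no promoter peak in any list, held a weak intronic site of 0.680 FPM in all 6 lists. The *Foxp2* site, intronic as well, had a mean of 0.832 and the *Foxn2* site, in an exon outside the UTRs, 1.12. A site 6676 bp beyond the end of *Foxq1* had a peak in every list, with a mean of 0.700 FPM and summits within 317 bp, but the peaks did not all overlap. It was counted only when peaks up to 200 bp apart were merged, which gave *Foxq1* the 1 distal region of its class.

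The 2 antibodies were compared at the 12830 regions found in all 6 lists, 30 of them in the windows of forkhead genes. These 30 included regions at starts of neighbouring genes, such as 24 bp from *Med12* and 31 bp from *Ccdc84*. Heights at the median region were higher with BRG1 by 0.47 on the log2 scale, so each library was centred on its median region before the test. limma, with p-values adjusted over all regions, called 414 regions (3.23%), 130 higher with BRG1 and 284 higher with PBRM1, and 0 of the 30. At an unadjusted p under 0.05 it called 5 of the 30 beside 20.3% of all regions. Without centring, 18 of the 30 were called, all higher with BRG1, beside 52.3% of all regions higher with BRG1 and 67 regions higher with PBRM1.

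The median centred difference of the 30 regions, BRG1 minus PBRM1, was 0.08 on the log2 scale, against 0.02 over all regions. Over all regions it differed by place, at 0.12 within 2 kb of a start and -0.19 for distal regions. limma called 1.98% and 5.56% of these. The *Foxo6* promoter leaned furthest toward BRG1, by 0.60 ± 0.18 (SE, limma, adjusted p = 0.0650), and the distal *Foxp2* site furthest toward PBRM1, by -0.60 ± 0.18 (limma, adjusted p = 0.0650). The *Foxo6* call changed with the regions tested, since among the 6415 regions above the median height its adjusted p from limma was 0.0397, and it was then the 1 forkhead region called at that setting. With fold enrichment in place of height the *Foxo6* difference was 0.09 (limma, adjusted p = 0.828) and the *Foxp2* difference -0.09 (limma, adjusted p = 0.832). Without centring the *Foxo6* difference was 1.07 (limma, adjusted p = 0.00022) and the *Foxp2* difference -0.13 (limma, adjusted p = 0.577). With 1 library left out, the adjusted p from limma for *Foxo6* ranged from 0.0580 to 0.235, the highest without BRG1 replicate 3. *Foxo3* differed by 0.31 ± 0.18 (limma, adjusted p = 0.340) and *Foxc1* by -0.25 ± 0.18 (limma, adjusted p = 0.430). The site shared by *Foxa3* and *Sympk* differed by 0.09 ± 0.18 (limma, adjusted p = 0.811).

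**Figure D5:**
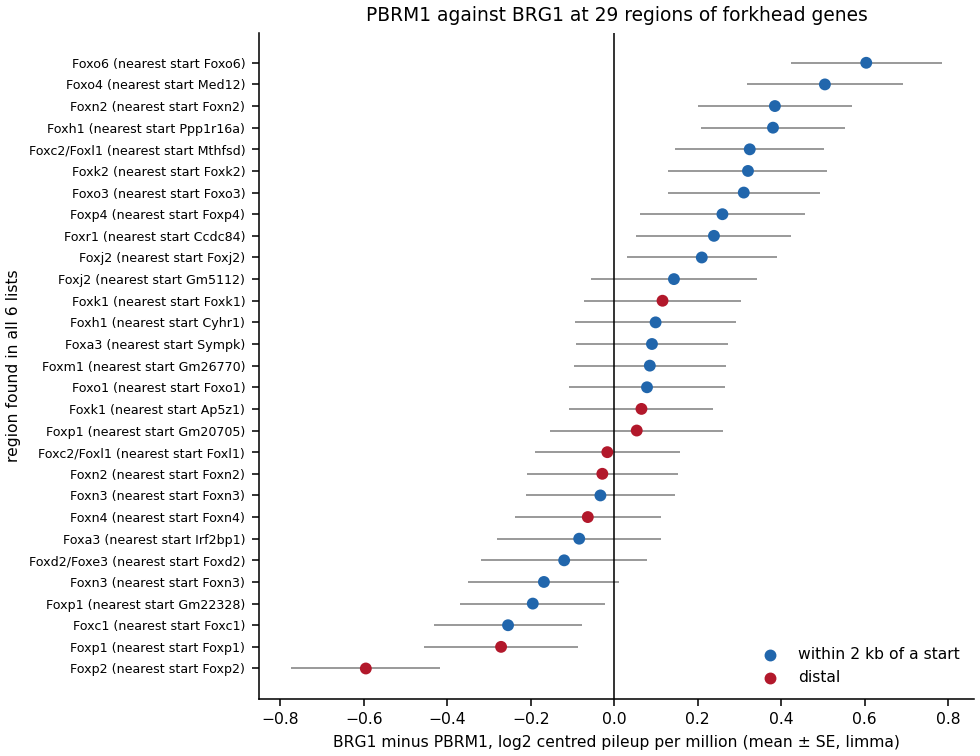
Difference between BRG1 and PBRM1 (x axis, log2 FPM centred on the median region of each library; points are estimates and bars are SE from limma, 3 libraries per antibody) at 29 of the 30 regions found in all 6 lists near forkhead genes, blue within 2 kb of a start and red distal. *Foxo6* at 0.60 and *Foxp2* at -0.60 are at the ends, and 0 regions passed the adjusted threshold.

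Genes that work with forkhead factors were read in the same way. Of 11 Hedgehog pathway genes, 4 had promoter peaks in all 6 lists, among them *Gli2*, *Smo* and *Sufu*, and the ligands *Shh* and *Dhh* in none. *Ptch1*, the Hedgehog receptor, was in 5 lists, at 0.808 and 2.43 FPM in PBRM1 replicates 1 and 2 and 2.705, 3.78 and 1.33 in the BRG1 libraries, and *Gli1*, a transcriptional target of the pathway, in 3. Of 16 genes upstream or downstream of FOXO factors, 12 were in all 6 lists, among them *Cdkn1b* (1.92 to 2.81 FPM for PBRM1 and 3.06 to 4.06 for BRG1), and 0 in none. Of 13 genes of motile cilia and their formation, 7 were in all 6 lists and 2, *Dnah5* and *Mcidas*, in none. These shares are to be read beside the 41.5% and 34.9% of all genes given above.

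Of the noncoding partners not yet given, *Foxl2os*, which starts 11 bp from *Foxl2*, had a promoter peak in 2 BRG1 lists, as *Foxl2* did, and *Foxo6os*, which starts 4001 bp from *Foxo6*, had none. The labelled cell type was checked against promoter peaks of marker genes. Of 8 smooth muscle markers *Acta2*, *Smtn* and *Tagln* were in all 6 lists, *Cnn1* was in none and *Myh11* in 1. Of 8 epithelial markers 0 were in all 6 lists and 4 in none, and the same counts were 1 and 1 of 8 stromal, 1 and 2 of 6 endothelial, and 0 and 5 of 6 leukocyte markers. Over all protein-coding genes the shares were 41.5% in all 6 lists and 34.9% in none. The 3 of 8 smooth muscle markers in all 6 lists were not above that share, so these counts do not establish the cell type. A peak of a remodeller at a promoter is not a measure of expression, so neither the purity of the cells nor the expression of the forkhead genes was measured here.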

How the data were processed

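Peak lists of 6 ChIC-seq libraries (PBRM1 and BRG1, 3 replicates each) and 2 pooled lists were used. Per the labels, reads were trimmed with cutadapt, aligned to GRCm38.p5 with Bowtie2 and peaks called with MACS2. Per the file headers, the authors ran MACS 2.2.7.1 on paired fragments without a control library, keeping all duplicates given to it, at a q cutoff of 0.05 with local background over 10 kb. The deposited pileup is a signal, the number of fragments over the summit, the deposited fold enrichment is a ratio to local background, and the deposited −log10 q is that of MACS. Peak length was read as deposited. Without a control, regions that every antibody enriches could not be removed.

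Pileup was scaled to 1000000 of the fragments in the header (14284532 to 23992352 per library) and given as FPM, and no interval was derived from it since fragments at a summit are not a count table. A promoter peak had its summit within 2 kb of any start of a gene in GENCODE M21. Overlapping peaks of the 6 lists were merged into regions, with the highest pileup per list. limma 3.58.1 in R 4.3.3 compared log2 FPM, centred per library on the median region, at regions with a peak in all 6 lists (Benjamini-Hochberg, adjusted p under 0.05), and was tested on simulated data. Other counts came from Python 3.11.15 with pandas 2.3.3 and pysam 0.24.0. Sequences came from the RefSeq GRCm38 genome and promoter table, which held 28 of 44 forkhead genes. The members, classes, gene lists and tests were chosen with earlier results of these data known. All mesenchymal and epithelial or endodermal genes were named; the others were given values if among the 5 highest promoters, the 5 with most distal regions or at a region limma called. Genes named beyond this were chosen after their values were seen. The IgG libraries were not analysed here. Some genes that enter the counts are not reported here by name or shown in the plots.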

Additional observations from a re-analysis of the deposited data

How the results depend on the processing

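Of 91 alternatives, 72 left their result within 1.5 times its value (or, for heights, within the spread between libraries). At a −log10 q of at least 5, 6 forkhead genes were in all 6 lists, against 5932 protein-coding genes (27.0%), and 24 in none. The share of all genes in none was not counted at the alternative settings. At this cutoff 1 mesenchymal gene was in all 6 lists and 4 in none, and 1 epithelial or endodermal gene was in all 6 and 9 in none. Broadly expressed genes in all 6 lists went from 8 to 2 of 12, and 2 distal regions were counted. With summits up to 5 kb from a start, 9 forkhead genes were in no list, 5 of them epithelial or endodermal and 0 mesenchymal. At that setting 3 mesenchymal genes and 1 epithelial or endodermal gene were in all 6 lists. *Foxl1* went from no list to all 6, since its upstream site had summits 2341 to 2477 bp from its start. With 50 kb flanks 14 distal regions were counted. With peaks up to 200 bp apart merged, an alternative added after the data were seen, there were 9. The lowest difference in median height between mesenchymal and epithelial or endodermal genes was -3.41 as fold enrichment and 0 with unlisted genes at the lowest called height. With that last setting the difference was at or above 0 in all 6 libraries, but it could not have been below 0. Only 1 or 2 of the 10 epithelial or endodermal genes had a peak in a library, so their median was the lowest called height. The difference was 0 in PBRM1 replicates 2 and 3 and BRG1 replicate 2. It went from -0.682 to 0.0758 FPM in PBRM1 replicate 1 and from -1.56 to 0.200 in BRG1 replicate 3. Mesenchymal genes in no list rose from 1 to 3 without BRG1 replicate 1, and to 3 with an equal number of strongest peaks per list. Epithelial or endodermal genes in no list went from 8 to 9 at both settings. The causes of these shifts were not tested.

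The number of regions called different between antibodies was 6772 without centring, 51 with fold enrichment and 221 among regions above the median height, and 89 to 420 when 1 library was left out; PBRM1 replicate 3 (89), BRG1 replicate 3 (114), BRG1 replicate 1 (187), PBRM1 replicate 2 (207) and PBRM1 replicate 1 (228) each moved it by over 1.5 times. Forkhead regions called were 18 without centring, 1 above the median height and 0 in the others. With a replicate block 460 regions were called, 0 of them at forkhead genes. The numbers are not known to pair the libraries: same-numbered libraries deviated from their antibody means with correlations of 6.19e-06, 0.00374 and -0.0286, and not every library correlated best with its own number. The lowest called peaks had 6 to 8 fragments, but taller promoter signal could go unlisted too. *Foxj1*, with pooled peaks of 61 and 59 fragments, was in no replicate list. Why a promoter peak was listed in some libraries and not in others was not tested.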
